A study of Mus musculus with 33 samples.

Results

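The joints between V, D and J segments of the immunoglobulin heavy chain (Igh) locus were measured in immature B cells of Igh(B1.8hi/+) mice, which carry a functional heavy chain gene, B1-8hi, that is already rearranged on 1 allele. All 8 Igh VDJ-seq libraries of this genotype were taken, out of 33 samples in the series. The other samples, VDJ-seq of the light chain locus Igk, chromosome contact maps and ChIP-seq, come from other cells and enter here only through 1 list of H3K27ac peaks. The 8 libraries form a single group, so values are described by their spread over libraries, and genes and regions are compared within libraries.

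The mice were on the C57BL/6 background and, per the study's methods, 4 to 5 weeks old and of both sexes. Their B1-8hi allele stems from strain 129 and gives IgM of the a allotype, whereas the other, wild-type allele (Igh+) is of C57BL/6 origin and would give the b allotype. The cells were sorted from bone marrow as immature B cells (IgD- Kit-) that displayed IgMa, the product of the knocked-in allele. All cells therefore shared the rearranged allele and the selection for its product, and no library without the B1-8hi allele was part of this set. The assay reads genomic DNA, so it records a joint whether or not the joint gives a protein, and the deposited values do not tell which allele a joint lay on. The study counts these data as 8 independent experiments. Labels do not say whether the 8 libraries came from separate mice, so the spread between them may be partly technical.

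During B cell development a DH segment is first joined to a JH segment, and a VH gene is then joined to the DJH piece by the RAG recombinase, which cuts at recombination signal sequences beside each segment. Once a heavy chain is made, rearrangement of the second allele normally ceases, a rule called allelic exclusion. VH genes lie in a long cluster whose DH-proximal end is rich in members of the VH5 and VH2 families, while the large VH1 family fills the distal end. The question put to these cells was which VH genes of the wild-type allele still recombined when a heavy chain was already expressed.

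The V gene of B1-8hi itself, VH1-72 (IGHV1-72, chr12:116996195-116996488 in mm9), made up most of each library. Its deposited value had a low of 52.2%, a median of 53.1% and a high of 53.9%, with a mean of 53.0% ± 0.678 (SD, n = 8). In all 8 libraries the label of a B1-8hi genotype was thus matched by its V gene. VH1-53 (IGHV1-53), which resembles VH1-72, came to 3.15% ± 0.194, and the entry IGHV1S5 came to 3.32% ± 0.207. The ratio of IGHV1S5 to VH1-53 lay between 1.05 and 1.06 in every library (mean 1.05 ± 0.00183), while the ratio of VH1-72 to VH1-53 ranged from 15.0 to 18.2. Hence IGHV1S5 and VH1-53 kept a nearly fixed proportion to each other, and VH1-72 varied against both.

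These 3 entries accounted for 96.2% ± 0.447 of all values given to a V gene and were removed. The 227 retained V gene names summed to 2.33% ± 0.262 of the deposited scale, with a low of 2.10%, a median of 2.24% and a high of 2.83%. Replicates 1 and 2 held the highest retained sums, 2.83% and 2.61%, and the other 6 libraries lay at 2.33% or below. Values of all V genes added up to between 61.2% and 62.7%, and the files do not name what makes up the rest of the total. The study gives VDJH together with DJH joints as the total of the frequencies it displays, and the files do not say whether the same holds for the deposited values. Every share below is a percent of the retained V genes of the same library, so it says how the remaining joints were divided and not how many cells carried one.

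**Figure D1:**
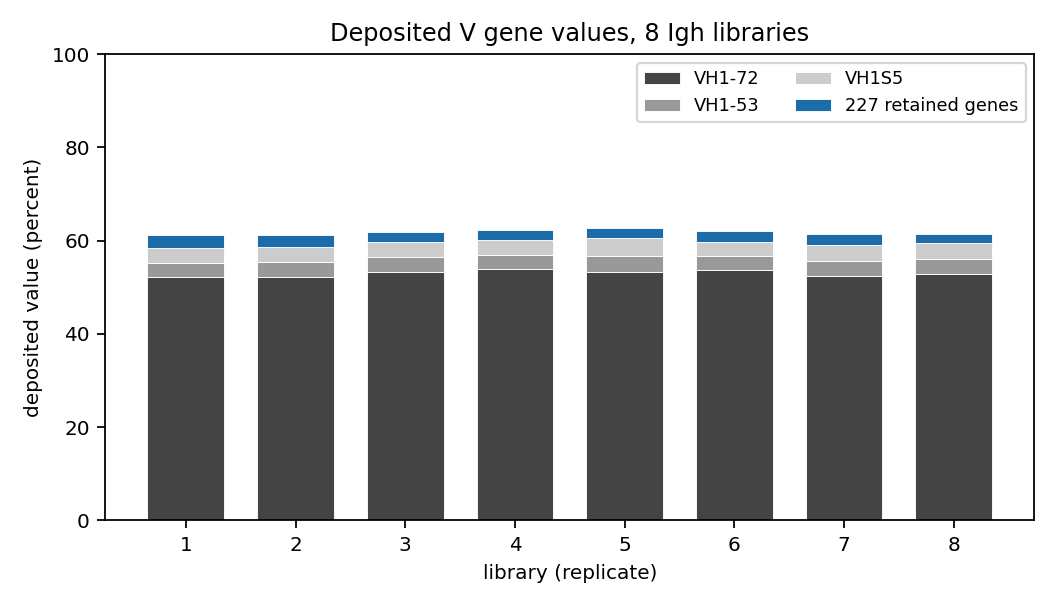
Deposited values in percent (vertical axis) of each of the 8 libraries (horizontal axis), stacked as VH1-72, VH1-53, VH1S5 (IGHV1S5) and the sum of the 227 retained genes. VH1-72 fills 52.2 to 53.9% in every library, and the retained genes form a thin layer of 2.10 to 2.83%.

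Replicates were numbered by accession, as the labels give no batch. No pair of the 28 pairs of libraries had identical values. The depth of the libraries is not given in the sources used here. Divided by a unit specific to each library, the values come out as whole numbers or whole numbers of sixths. The files hold 23640 to 44384 such units per library and 576 to 954 in the retained genes, but a unit may be a part of a sequence, so no counting interval or limit for a value of 0 is given. Profiles were therefore compared by distance, the summed absolute difference of shares divided by 2, which averaged 14.7 percentage points over the 28 pairs. All 8 libraries were kept as separate samples.

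The recombination signals beside the proximal V genes and the letters downstream of them are shown first, because the genes are compared below by both. Each stretch is from the mm9 (NCBIM37) genome, which represents the C57BL/6 allele, read 5′ to 3′ on the minus strand that codes for the V genes. Capitals mark, in order, the heptamer, the nonamer and a 12-letter core of the binding motif of CTCF, the architectural protein that anchors chromatin loops. The 6 genes used up to VH5-6 come first, in locus order, followed by VH5-12, the highest gene beyond them.
VH5-1, chr12:114811068-114811137: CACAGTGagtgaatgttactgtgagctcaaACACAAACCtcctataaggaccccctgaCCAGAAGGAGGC
VH5-2, chr12:114816645-114816714: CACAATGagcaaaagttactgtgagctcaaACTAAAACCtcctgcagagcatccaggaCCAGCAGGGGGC
VH2-2, chr12:114826406-114826477: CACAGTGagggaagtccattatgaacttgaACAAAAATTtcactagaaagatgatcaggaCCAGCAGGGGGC
VH5-4, chr12:114835587-114835656: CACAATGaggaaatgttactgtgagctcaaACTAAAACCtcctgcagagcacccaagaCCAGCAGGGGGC
VH2-3, chr12:114849323-114849394: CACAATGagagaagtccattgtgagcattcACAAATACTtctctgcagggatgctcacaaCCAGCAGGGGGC
VH5-6, chr12:114863647-114863716: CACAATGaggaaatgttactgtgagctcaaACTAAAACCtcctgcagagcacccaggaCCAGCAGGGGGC
VH5-12, chr12:114940265-114940334: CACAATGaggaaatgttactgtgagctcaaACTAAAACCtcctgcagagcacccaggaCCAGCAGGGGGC

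The V genes nearest to the DH segments took most of the remaining recombination. The 10 listed genes from VH5-1 to VH5-6 (IGHV5-1 to IGHV5-6), which span 52.9 kb, together held 70.9% ± 2.27 of the retained V genes (SD, n = 8), with a low of 68.1%, a median of 70.3% and a high of 74.1%. Only 6 of the 10 genes carried this share. The other 4, VH2-1, VH5-3, VH6-1 and VH5-5, were listed at 0 in all 8 libraries. The share rested on which entries were removed: leaving IGHV1S5 in brought it to 29.3%, since that single entry exceeded all 227 retained genes together.

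VH5-2 (IGHV5-2, also called VH81X), the second gene of the VH5 family from the DH side, was the most used gene in every library. It held 32.2% at the lowest, 35.0% at the median and 40.8% at the highest, a mean of 36.1% ± 3.07. It lies at chr12:114816715-114817201, where GENCODE names the IG_V_gene Gm16969. VH5-2 alone made up 50.9% ± 3.28 of the share of the 10 genes.

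VH2-2 (IGHV2-2, chr12:114826478-114826911, Gm16970), 9.76 kb farther from the DH segments, came next with a low of 14.7%, a median of 15.5% and a high of 17.2%. Its mean of 15.6% ± 0.862 varied less than that of VH5-2, and the values of the 2 genes did not overlap. The ratio of VH5-2 to VH2-2 ranged from 2.02 to 2.78. Together they took 51.8% ± 2.71 of the retained V genes.

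VH5-4 (IGHV5-4, chr12:114835659-114835952, Gm16971) followed with a low of 6.69%, a median of 7.83% and a high of 9.55%, a mean of 7.98% ± 0.985. VH2-3 (IGHV2-3, chr12:114849395-114849687, Gm16948) had a low of 3.32%, a median of 4.22% and a high of 5.04%. VH5-6 (IGHV5-6, chr12:114863719-114864012, Gm16891) had a low of 2.38%, a median of 4.03% and a high of 4.65%. All values of VH5-4 lay above all values of VH2-3 and VH5-6, which overlapped each other.

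VH5-1 (IGHV5-1, chr12:114811140-114811433) is the V gene closest to the DH segments, 44.9 kb from the nearest annotated DH gene, and overlaps no GENCODE gene of this release. It was the least used of the 6 genes, with a low of 2.51%, a median of 3.05% and a high of 3.30%. Use therefore did not simply fall with distance: the nearest gene held 2.97% ± 0.317, and VH5-2, whose start lies 5.57 kb from that of VH5-1, held 12.2 times as much.

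**Figure D2:**
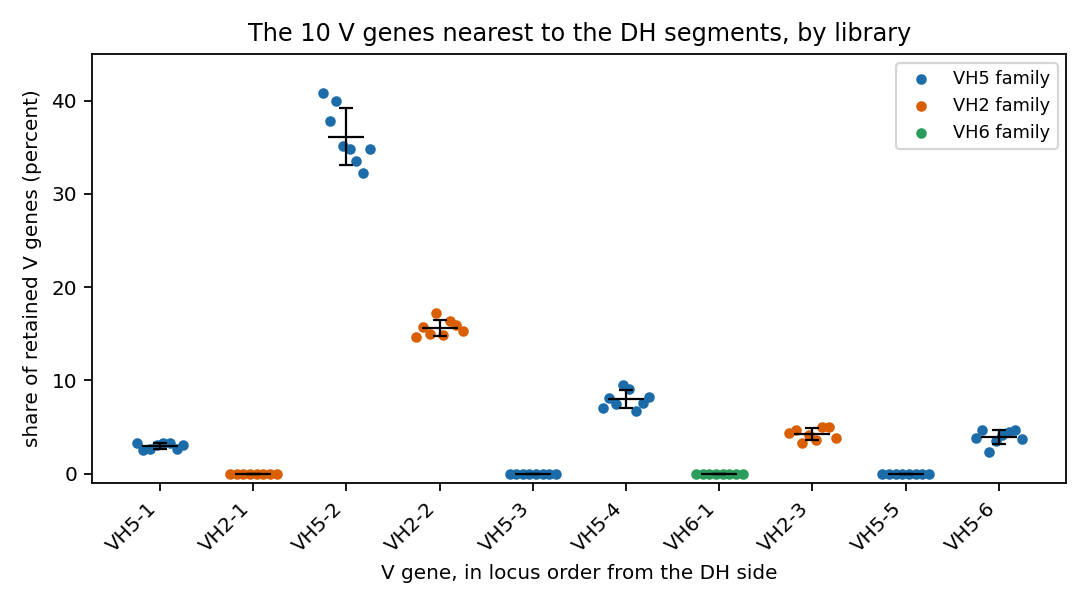
Share of retained V genes in percent (vertical axis) for the 10 listed genes nearest to the DH segments in locus order (horizontal axis). Points are the 8 libraries in replicate order, the bar and whiskers give mean and SD, and colours give the family; VH5-2 lies at 32.2 to 40.8%, and 4 of the 10 genes lie at 0.

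The order VH5-2, VH2-2, VH5-4 held in all 8 libraries. Within libraries, 14 of the 15 pairs of the 6 used genes differed (two-sided exact permutation test over sign changes of 8 differences, Benjamini-Hochberg over 15 pairs). For 13 of these pairs the gene with the higher mean was higher in 8 of 8 libraries, with adjusted p = 0.00901 by the exact test. VH5-6 exceeded VH5-1 by 0.954 percentage points ± 0.794 in 7 of 8 libraries, with adjusted p = 0.0167 by the exact test. The neighbours VH2-3 and VH5-6 were not told apart: VH2-3 was higher by 0.311 points ± 0.463 in 7 of 8 libraries, with adjusted p = 0.109 by the exact test. That pair passed only without replicate 5, the single library in which VH5-6 exceeded VH2-3 (adjusted p = 0.0167, exact test).

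Beyond VH5-6, use dropped within the same families. The 22 genes from VH5-7 to VH5-19 held 7.55% ± 0.814, with a low of 6.11%, a median of 7.82% and a high of 8.57%. That was lower than the share of the first 10 genes in 8 of 8 libraries, by 63.3 points ± 2.79. The border at VH5-6 is the one the study drew from these same libraries, so this difference is given as a description only. Its test is left out, although the pair counts in the correction over neighbouring regions used below. Of the 22 genes, 12 were above 0 in some library, 9 in all 8 and 10 in none.

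VH5-12 (IGHV5-12) was the highest of them with 2.64% ± 0.733. Its values fell into a low pair, 1.42% in replicate 1 and 1.58% in replicate 3, and 6 libraries between 2.80% and 3.32%. Replicates 1 and 3 were also those with the highest share of VH5-2, 40.8% and 40.0%. The other 4 of the 5 genes with the highest mean in this region held means below 1%: VH2-5 0.921% ± 0.253, VH5-17 0.802% ± 0.323, VH2-9-1 0.556% ± 0.218 and VH2-6 0.513% ± 0.190. Just below them stood VH5-9-1 with a mean of 0.493%.

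The middle of the cluster, 41 genes from VH7-1 to VH8-2 of many small families, held 7.07% ± 1.03, with a low of 5.84%, a median of 6.84% and a high of 9.29%. Its sum was not told apart from that of VH5-7 to VH5-19, which was higher by 0.482 points ± 0.975 in 6 of 8 libraries (adjusted p = 0.203 over 3 pairs of neighbouring regions, two-sided exact permutation test). The difference was 0.248 points without replicate 4 and 0.673 points without replicate 3. Ending the middle region before VH8-1 lowered its share to 5.60%, and the comparison was not repeated with that border. Per listed gene the 2 regions did differ, by 0.171 points with the VH5-7 to VH5-19 genes higher (adjusted p = 0.00781, exact permutation test). The genes with the highest means in the middle region, whose order was not tested, were VH3-6 at 0.750% ± 0.403, VH9-3 at 0.736% ± 0.414 and VH13-2 at 0.50% ± 0.147.

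The distal region, 108 retained genes from VH1-2 to VH1-86, held 10.8% ± 1.5, with a low of 9.08%, a median of 10.7% and a high of 12.8%. It exceeded the middle region in 8 of 8 libraries, by 3.71 points ± 1.70 (adjusted p = 0.0117 over 3 pairs of regions and 0.0156 without the pair at VH5-6, exact permutation test). The direction turned with the scale: per listed gene the middle region was higher by 0.0726 points (adjusted p = 0.00781, exact permutation test). In locus order the 4 regions held 7.09%, 0.343%, 0.172% and 0.0998% per listed gene. No distal gene reached a mean of 1%, although single libraries held up to 1.77% of VH1-18. The highest means, in an order that was not tested, were those of VH1-18 at 0.869% ± 0.466, VH8-8 at 0.609% ± 0.293, VH1-26 at 0.586% ± 0.331, VH10-1 at 0.426% ± 0.234 and VH1-55 at 0.413% ± 0.262. VH1-18 and VH1-26 are 97.3% identical over 294 aligned bases, so how the 2 divided their reads is uncertain.

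**Figure D3:**
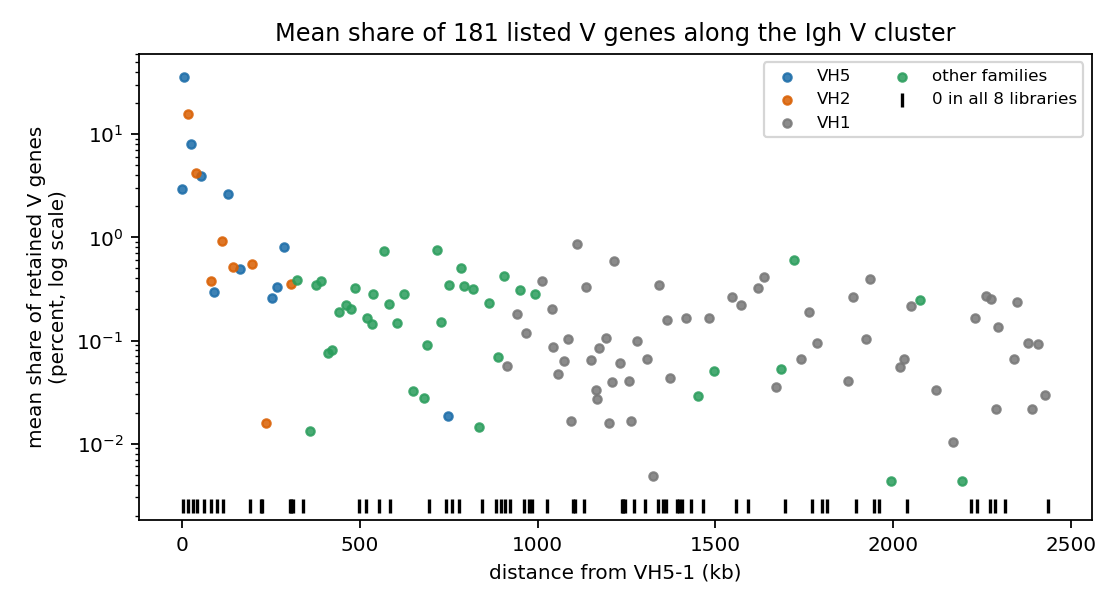
Mean share of the retained V genes over 8 libraries (vertical axis, percent on a log scale) against the distance of each of 181 listed V genes from VH5-1 in kb (horizontal axis), coloured by family. Black ticks at the bottom mark genes listed at 0 in all 8 libraries; past VH5-12 no gene reaches a mean of 1%.

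Of the 227 retained names, 156 were above 0 in some library, 44 in all 8 and 71 in none. A single library held between 83 and 101 genes above 0. Only 7 genes had a mean share of at least 1%, the 6 used genes up to VH5-6 and VH5-12. Of the retained names, 46 are not in the study's list of V gene positions and could not be placed along the locus. They summed to 3.70% ± 0.569, and 4 of them were above 0 in all libraries: IGHV2-5-1 at 0.713%, IGHV5-12-1 at 0.640%, IGHV2-6-1 at 0.491% and IGHV2-6-2 at 0.477%. These names belong to the 2 proximal families too.

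By family, VH5 held 56.9% ± 2.48 over 29 retained names and VH2 held 24.7% ± 1.75 over 22. VH5 was higher in 8 of 8 libraries, by 32.2 points ± 3.84 (p = 0.00781, two-sided exact permutation test, the smallest value it can give with 8 libraries). Among the first 10 genes the families held 51.0% ± 2.65 and 19.9% ± 1.30. Among the listed genes beyond VH5-6 they held 4.84% ± 0.424 and 2.73% ± 0.540, with VH5 higher in 8 of 8 libraries (p = 0.00781, exact permutation test). With the names that have no position added, the shares outside the first 10 genes came to 5.86% ± 0.552 and 4.85% ± 0.797, with VH5 higher in 7 of 8 libraries (p = 0.0156, exact permutation test). Most of the gap between the families thus lay in the first 10 genes, where VH5-2 alone held 36.1%. The other used VH5 genes there held means of 2.97% (VH5-1), 7.98% (VH5-4) and 3.93% (VH5-6). Against these stood VH2-2 with 15.6% and VH2-3 with 4.24%. The lead of VH5 among the first 10 genes and over all names therefore rested on VH5-2. Without that gene the mean VH5 sum would lie below that of VH2 in both sets.

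The VH1 family, the largest with 112 retained names, held 9.17% ± 1.26, of which 76 names were above 0 in some library and 11 in all 8. Every other family stayed below 3% in every library. VH3 held 2.09% ± 0.492, VH9 1.47% ± 0.606 and VH8 1.08% ± 0.309. VH16, with 1 gene, was listed at 0 throughout.

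**Figure D4:**
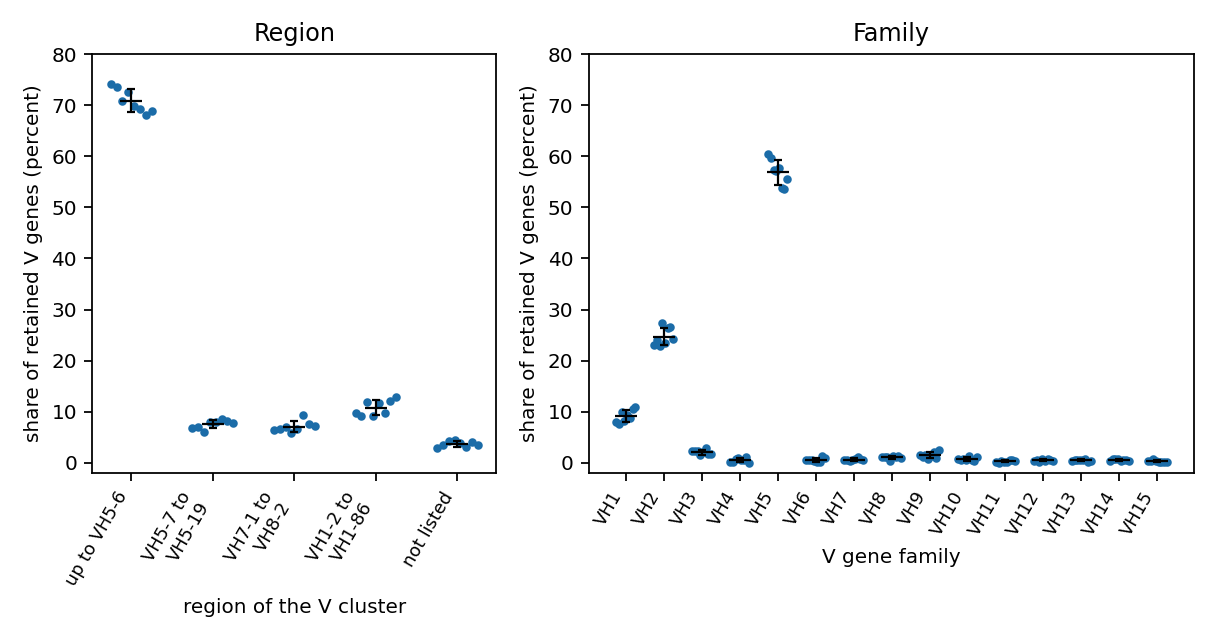
Share of the retained V genes in percent (vertical axes) by region of the V cluster (left) and by V gene family (right, VH16 at 0 left out). Points are the 8 libraries in replicate order and bars with whiskers give mean and SD; the first region lies at 68.1 to 74.1%, and VH5 and VH2 stand above all other families.

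The adjacent sequence was then read for every listed gene. A recombination signal was sought as a heptamer beginning CAC and like CACAGTG, a spacer of 22 to 24 bases and a nonamer like ACAAAAACC, with at most 4 mismatches over the 16 letters, on the V strand from 100 bases inside to 60 bases past the listed end. Such a match stood beside 124 of 183 listed genes (67.8%), against 1.42% of chromosome 12 windows of the same 160 bases and 1.74% of those in the V cluster. The CTCF core, the letters CCA, AG and GGC in this order with 2 free positions after each of the first 2 groups, was sought on both strands of the 200 bases downstream. It stood beside 31 of 183 listed genes (16.9%), against 1.02% of 200-base windows of chromosome 12 and 0.886% of those within the V cluster. All 31 ran in the direction of the V gene, and the core began a median of 61 bases past the V gene. A match describes letters only and is no measure of cutting or of binding.

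Among the 32 listed genes from VH5-1 to VH5-19, 20 had a signal match, and 18 of these 20 were above 0 in some library. None of the 12 genes without a match was above 0. All 6 used genes up to VH5-6 had both the signal and the CTCF core, whereas VH2-1, VH5-3, VH6-1 and VH5-5 had neither. The 72 bases past 2 of these genes listed at 0 are shown for contrast, all in lower case since no searched letters were found.
VH2-1, chr12:114812386-114812457: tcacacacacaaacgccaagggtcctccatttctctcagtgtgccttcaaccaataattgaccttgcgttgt
VH5-3, chr12:114828106-114828177: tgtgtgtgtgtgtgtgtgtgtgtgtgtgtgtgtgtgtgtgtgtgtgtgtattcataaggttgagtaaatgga
The 17 proximal genes with both kinds of letters held a median share of 0.802% (16 above 0). The median was 0.277% over all 32 genes from VH5-1 to VH5-19 and 0.0508% over all 181 retained listed genes. Genes of the middle region with both kinds of letters had a median of 0.311%, so these medians differ by region as well. The exception at 0 was VH2-6-8. It is the listed gene most like VH2-3 (95.8% identity), VH2-6 (96.2%) and VH2-9-1 (95.1%). Whether its 0 reflects how reads were assigned was not tested.

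Across the whole list, 100 of the 123 retained genes with a signal match were above 0 in some library, and 17 of the 58 without one. The 16 listed VH8 genes all lacked a match under these letters although 8 of them were above 0, so genes without a match were used as well. The CTCF core was found at 10 of 21 listed VH5 genes, 7 of 11 VH2 genes and 6 of 8 VH3 genes, and at none of the 90 listed VH1 genes retained. It was also found at 12 signal-bearing genes of the middle region, whose highest member, VH3-6, held 0.750%. High use was thus not shared by all genes that had both kinds of letters.

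**Figure D5:**
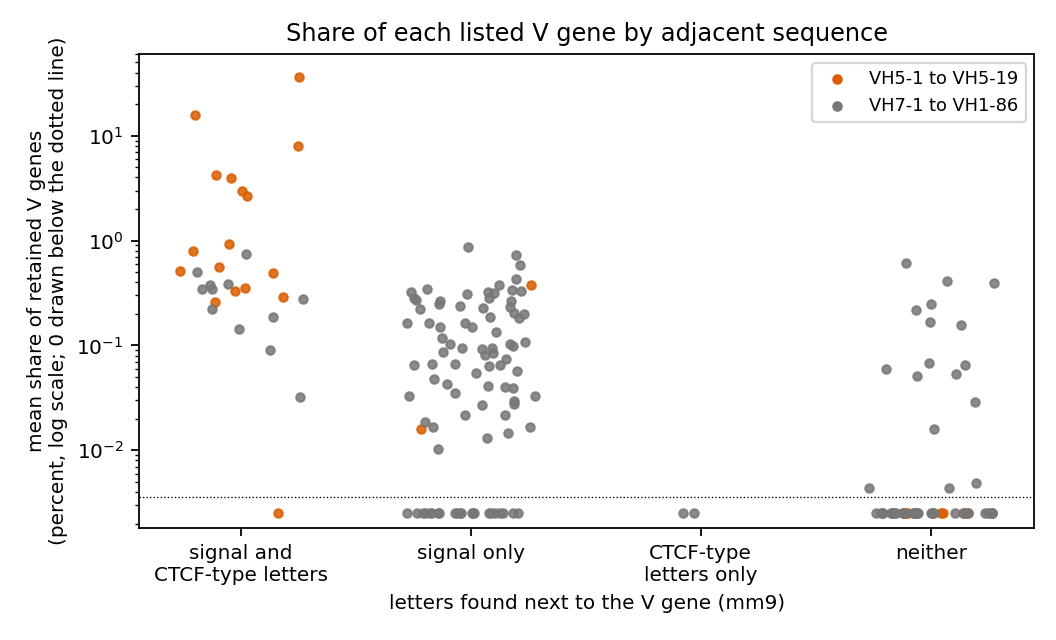
Mean share of the retained V genes (vertical axis, percent on a log scale, values of 0 drawn below the dotted line) for 181 listed genes, grouped by the letters found beside them (horizontal axis): recombination signal, CTCF core, both or neither. Each point is a gene, proximal genes in orange and all others in grey; the 6 genes used up to VH5-6 all lie in the group with both.

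Proximal genes with the same recombination signal differed widely in use. From VH5-1 to VH5-19 there were 3 sets of genes with a signal identical in every base, spacer included. In all 5 pairs of successive genes in these sets the gene nearer to the DH segments had the higher mean. Beyond VH5-19 this was so in 15 of 23 such pairs and the reverse in 8. VH14-2 at 0.0815% and VH14-3 at 0.325% were among the latter. Grouped by heptamer and nonamer alone, the nearer proximal gene was not always higher, as VH2 genes show. In locus order, VH2-2, VH2-4 and VH2-5 held 15.6%, 0.378% and 0.921%. VH2-6, VH2-9-1 and VH2-6-8 held 0.513%, 0.556% and 0%. In the proximal set of VH5 genes, the 39 bases from heptamer to nonamer are identical at 4 genes, VH5-4, VH5-6, VH5-12 and VH5-9-1. Their mean shares in locus order were 7.98%, 3.93%, 2.64% and 0.493%, and each gene exceeded the following gene in 8 of 8 libraries. The value was not a whole number of units in 2 libraries for VH5-4, 5 for VH5-6 and 7 for VH5-12. Reads of these genes may therefore be split with other genes. These sets were noticed after the values had been seen, so no test is given.

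VH2-2 and VH2-4 also have an identical signal of 39 bases. VH2-2 held 15.6% and VH2-4, 65.0 kb farther away, held 0.378%, a ratio of 41.4. Over 72 bases from the heptamer on, they differ at 2 positions, counted from 1 at the first heptamer base with the VH2-2 base given first: G53A and A63T. The substitution A63T falls on position 3 of the 12 core letters, so that VH2-4 had no match to the CTCF core. The stretch beside VH2-4 can be set against that of VH2-2 above.
VH2-4, chr12:114891430-114891501: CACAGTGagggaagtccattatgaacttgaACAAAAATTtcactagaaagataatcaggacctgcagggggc
The 2 genes are 98.0% identical over 293 bases. Reads may therefore be split between them, and in 4 of 8 libraries the value of VH2-2 was not a whole number of units (within 0.0001 of a unit). VH2-5, which lies farther still and has the same heptamer and nonamer and a CTCF core, held 0.921%, more than VH2-4. It is 97.6% identical to VH2-4, and its value was not whole in any of the 8 libraries, so its share is uncertain in the same way.

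Likeness to VH1-72 was measured for all listed genes, since the study set VH1-53 aside for its similarity to the knocked-in gene. VH1-53 is 95.9% identical to VH1-72, with 12 mismatches over 294 bases. VH1-64, with the same number of mismatches, had a deposited value of 0.00908% ± 0.00451, and VH1-53 had 3.15%. VH1-62-3 differs from VH1-72 at 2 of 294 bases and came to 0.00616% ± 0.00539. What gave rise to the value of VH1-53 was not tested. These 2 genes were chosen after their values were seen. Apart from VH1-53, 10 listed genes, both of these included, had at least 90% identity; 9 of them were above 0, and together the 10 held 2.23% of the retained V genes. What part of that share was VH1-72 sequence was not tested.

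Across the 8 libraries no correlation past the threshold was found of VH1-72 with VH1-53 (Pearson r = -0.21, exact permutation p = 0.654, adjusted p = 0.654; Spearman rho = -0.31, exact permutation p = 0.462) or with IGHV1S5 (r = -0.22, exact permutation p = 0.633, adjusted p = 0.654; rho = -0.31, exact permutation p = 0.462). Both values rested on single libraries, since r was -0.58 for each without replicate 5 and -0.03 for each without replicate 6. The relation of VH1-72 with the retained sum had r = -0.74 (exact permutation p = 0.0299, adjusted p = 0.0897 over 3 relations) and rho = -0.60 (exact permutation p = 0.132, adjusted p = 0.397). Without the 2 libraries farthest from the median of VH1-72, r with the retained sum was -0.67. All 4 quantities share 1 total per library, so part of a negative r is built into them.

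H3K27 acetylation, a mark of active promoters and enhancers, had been profiled in pro-B cells of Rag1(Cre/Cre) mice in 1 ChIP-seq library, an earlier cell stage than the immature B cells. In mm9 its peaks left the proximal V genes bare. The last peak before the V cluster, chr12:114661954-114669769, covered the JH end, 141 kb from VH5-1, and the next peak began at chr12:115232460-115233186, past VH5-19. Accordingly, 0 of the 32 genes from VH5-1 to VH5-19 lay within 1 kb or 5 kb of a peak. Of all 181 retained listed genes, only 9 lay within 1 kb and 12 within 5 kb. With so few genes near a peak, 0 of 32 is close to the share over all genes and marks no trait of the proximal genes. The 9 genes within 1 kb together held 0.551% of the retained V genes.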

How the data were processed

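Per the study's methods, sheared genomic DNA was ligated to adapters with UMI sequences, extended from biotinylated JH primers, captured, amplified and sequenced on a MiSeq. The authors deposited 1 percent per V gene and library (230 names); the aligner and the V gene assignment are not given in the sources used here, and the total behind the deposited percentages is not named in the files. Positions came from the study's list of 183 IGHV genes (mm9), and H3K27ac peaks as deposited by the authors. IGHV1-72, IGHV1-53 and IGHV1S5 were removed and the other values rescaled to 100 within each library (pandas 2.3.3, scipy 1.17.1). Units were read from the values and are not a depth. Named were the 10 genes up to VH5-6, the 3 removed entries and, by mean share, the 5, 3 and 5 highest of the further regions. Identities came from blastn 2.17.0+. The members and lists were chosen with earlier results of these data known. Light chain libraries and contact maps were not used here.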

Additional observations from a re-analysis of the deposited data

Results flagged for a closer look

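In 8 libraries, a value was marked when the gap between an extreme library and its nearest neighbour was large for the whole range (Dixon's ratio at the 95% level). Of 47 values examined, 2 were marked, and chance marks about 1 in 20. Both concern shares of the retained V genes. The share of the VH8 family was 0.398% in replicate 4, while the other 7 libraries lay between 1.02% and 1.39%. The share of VH10-1 (IGHV10-1) was 0.944% in replicate 5, while the other 7 libraries lay between 0.116% and 0.448%. The marks depend on the scale: among the deposited values of the named genes, VH10-1 was not marked, while VH5-1 (IGHV5-1) stood apart in replicate 1 with 0.0931% against 0.0612% to 0.0715% in the other 7 libraries.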

How the results depend on the processing

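Of 281 recomputed values for 30 results, 269 kept their direction and their side of the threshold, moved by less than the spread between libraries or, for counts, stayed within 1.5 times. Removing only IGHV1-72 and IGHV1-53 brought the share up to VH5-6 to 29.3%, VH5-7 to VH5-19 to 3.10%, VH7-1 to VH8-2 to 2.91% and VH1-2 to VH1-86 to 4.42%; with IGHV1S5 kept, that entry takes up most of the scale. Removing only IGHV1-72 gave 18.8% for the first share, and removing the whole VH1 family gave 78.0%. Starting the distal region at IGHV8-1 moved the middle share to 5.60%. Per listed gene, VH5-7 to VH5-19 exceeded VH7-1 to VH8-2 by 0.171 points, and VH7-1 to VH8-2 exceeded VH1-2 to VH1-86 by 0.0726 points, the reverse of their sums. Counting only genes above 0 in all 8 libraries gave 44 in place of 156. Leaving out each library in turn kept the first share between 70.4% and 71.3%, the passing pairs between 14 and 15, and the correlation of VH1-72 with the retained sum between -0.81 and -0.67. That correlation passed without replicate 8 alone (adjusted p = 0.0423, exact permutation test). At most 3 in place of 4 mismatches left 119 of 123 genes with a signal match; this limit was chosen after seeing the data, as was leaving libraries out of the region differences, the gene count and the correlations. Between groups, no paired analysis was possible because the 8 libraries form the only group; pairing was used within libraries alone, for genes and regions. Without a known depth, the order of genes with small shares is only that of their means, and a value of 0 sets no limit on use.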
